A study of Rattus norvegicus with 12 samples.

Results

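The immediate early and AP-1 genes described here are Fos, Fosb, Jun, Junb, Jund, Egr1, Atf3, Ier2, Ier3 and Gadd45a. They were taken as every probe set that the array's annotation gives to one of these 10 symbols alone, which were 15 of the 31042 probe sets that are not controls, measured in the cortex of 12 rat kidney grafts. In 6 grafts the donor kidney was ABCC2-/- and lacked MRP2, the export pump of organic anion conjugates in the apical membrane of proximal tubule cells, and in 6 the donor kidney was wild type. The labels give male as the sex of every sample, and all grafts were placed in wild-type recipients, so the recipients' own organs and blood cells were wild type in both groups. The strain, the age and the time between transplantation and sampling are not given in the sources used here. Each graft was measured on 1 array. Whether every graft had a donor of its own is not stated, so a p-value here refers to the variation among these 12 arrays, some of which may be technical.

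Immediate early genes are transcribed within minutes of a stimulus from factors that the cell already holds, such as the serum response factor and CREB, without the need for new protein. Several of their products are transcription factors themselves. FOS and JUN proteins pair through leucine zippers to form AP-1, which binds the promoters of genes of growth, matrix turnover and stress. In kidney these transcripts are known to respond to ischaemia, reperfusion and toxic injury, and Jun and Jund are also held at a steady level in unstressed tissue.

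The deposited values are probe set signals on a linear scale, in arbitrary units, after each array had been divided by a constant. A floor of 0.0694, at the 20th percentile of all signals, replaced any lower signal before log2 was taken. A probe set was tested where its mean log2 signal reached the 40th percentile, which left 18625 probe sets. Of the 15 probe sets of these genes 10 were tested, from 8 genes. Those not tested were the only probe sets of Fosb and Atf3, 1 of 2 for Fos and 2 of 3 for Jund. A difference is the mean log2 signal of ABCC2-/- grafts less that of wild-type grafts. Its standard error (SE) is from limma, fitted over all 18625 probe sets, and adjusted p-values are Benjamini-Hochberg values over the same probe sets.

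The targeted gene followed the labels. Abcc2 had signals between 0.0387 and 0.213 in the ABCC2-/- grafts and between 0.787 and 0.987 in the wild-type grafts (log2 difference -2.69, SE 0.22, limma adjusted p = 8.35e-06). Markers of cortex cells were present. All 6 proximal tubule markers were tested, and their summed signal ran from 195 to 212 in ABCC2-/- grafts and from 190 to 246 in wild-type grafts. Of 26 tested marker genes of all cell types 17 had lower and 9 higher signal in ABCC2-/- grafts, and none was called. Of all 10639 tested genes 6238 had lower and 4401 higher signal. At an unadjusted p under 0.05 stood 7.64% of all tested genes in either direction, with 564 of the 10639 lower. Of the markers 5 stood past that level, all lower in ABCC2-/- grafts. They were the proximal tubule genes Slc5a2 (log2 difference -0.38) and Cubn (-0.22) and the only tested podocyte gene, Nphs1 (-0.24). The others were the distal genes Slc12a3 (-0.40) and Slc4a1 (-0.41, also an erythrocyte gene). The remaining proximal tubule markers were Slc34a1 (0.12), Slc22a6 (-0.093), Aqp1 (-0.053) and Lrp2 (-0.009). The remaining distal markers were Calb1 (0.102) and Aqp2 (-0.131), so neither list was lower in every marker. What part the 5 genes have in the results below was not tested. Among 5 macrophage markers Cd163 and Itgam were below the floor in 11 of 12 arrays. The other 3 were above the floor in all 12 arrays. These 3 were all higher in ABCC2-/- grafts without being called, namely Csf1r (log2 difference 0.165), Cd68 (0.147) and C1qa (0.11). The sum of the macrophage list lay between 5.79 and 9.09 in ABCC2-/- grafts and between 6.08 and 7.60 in wild-type grafts. The liver markers Alb and Apoa1 and the muscle markers Myh2 and Ckm did not reach the level filter.

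The arrays did not form 1 even set, which bears on the results below. The series lists 6 arrays for each genotype, and within each genotype the first 3 arrays listed and the last 3 listed differed in the dividing constant. The constants were 135 to 160 and 114 to 124 in the first and last 3 ABCC2-/- arrays, and 169 to 197 and 104 to 139 in the first and last 3 wild-type arrays. These are called array set 1 and array set 2, and the labels record no batch. The sets follow the listing order within each genotype. Nothing in the sources shows that the same set of the 2 genotypes was handled together. In set 1 the constants of the genotypes did not overlap, and those of ABCC2-/- arrays (135 to 160) reached into the range of wild-type set 2 (104 to 139). Array set 1 holds ABCC2-/- replicates 5, 9 and 11 and wild-type replicates 1, 6 and 9, and array set 2 holds ABCC2-/- replicates 3, 10 and 14 and wild-type replicates 4, 7 and 8. The log2 ratio of the Gapdh 3′ to the Gapdh 5′ control probe set, a measure of RNA integrity and labelling, was 0.359 to 0.449 in the ABCC2-/- arrays of set 2, 0.731 to 0.947 in those of set 1, and 0.710 to 0.913 in all wild-type arrays.

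No probe set of the immediate early and AP-1 genes passed an adjusted p of 0.05. The count was 0 of 10, against 4 of all 18625 tested probe sets (0.0215%). At an unadjusted p under 0.05 there were 2 of the 10, where 7.98% of all tested probe sets stood past that level. Gadd45a was the 1 with higher signal in ABCC2-/- grafts (3.35% of all) and Jund the 1 with lower signal (4.63% of all). Of the 10 differences 7 were positive and 3 negative. By gene, with the brightest probe set of each, 5 were positive and 3 negative, against 4401 and 6238 of all tested genes. No member's groups were free of overlap, a pattern shown by 0.435% of all tested probe sets. In bulk cortex, fewer cells of a type and less RNA per cell cannot be told apart. The forest plot gives the 10 differences with their intervals.

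**Figure D1:**
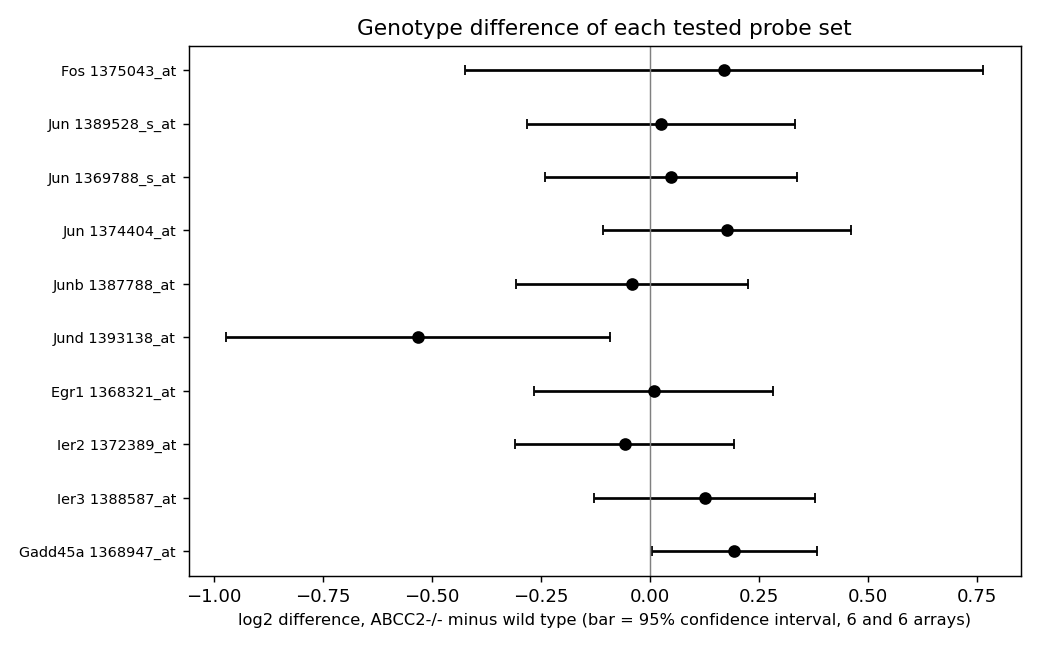
Log2 difference, ABCC2-/- minus wild type, of the 10 tested probe sets, with 95% confidence intervals of the limma fit over 6 and 6 arrays. The intervals of Jund (-0.97 to -0.092) and Gadd45a (0.0040 to 0.38) exclude 0 before adjustment, and the other 8 include it.

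Of the FOS family, Fos itself was close to the floor. FOS proteins cannot pair with themselves and bind DNA only as partners of JUN proteins. The tested Fos probe set had a lowest, median and highest signal of 0.0931, 0.218 and 0.315 in ABCC2-/- grafts, against 0.130, 0.172 and 0.234 in wild-type grafts. The ABCC2-/- values thus lay on both sides of all wild-type values, and both the lowest and the highest of the 12 arrays were ABCC2-/-. The log2 difference was 0.17 (SE 0.28, adjusted p = 0.832), and its 95% interval of -0.42 to 0.76 was the widest of the 10. The other Fos probe set averaged 0.0888 ± 0.0537 in ABCC2-/- and 0.104 ± 0.0514 in wild-type grafts (SD, n = 6 each) and was below the floor in 2 ABCC2-/- arrays and 1 wild-type array. Fosb, a close relative of Fos, had signals of at most 0.112 in ABCC2-/- grafts and 0.107 in wild-type grafts, and 4 of 6 arrays of each genotype were below the floor. Neither Fosb nor the second Fos probe set allows a statement on the genotypes.

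Jun, the main partner of FOS, was well measured by 3 probe sets. The brightest had a lowest, median and highest signal of 3.58, 4.74 and 6.89 in ABCC2-/- grafts, against 3.94, 4.78 and 6.00 in wild-type grafts. The medians nearly coincided, and the ABCC2-/- range enclosed the wild-type range. Its log2 difference was 0.02 (SE 0.14, adjusted p = 0.960, 95% interval -0.28 to 0.33). The other 2 probe sets gave 0.05 (SE 0.14) and 0.18 (SE 0.14), with adjusted p of 0.905 and 0.670. The 3 probe sets followed each other from graft to graft, with r of 0.87 to 0.90 between their deviations from the genotype means over 12 arrays. All 3 were highest in ABCC2-/- replicate 3, at 6.89, 5.75 and 1.5. Among wild-type grafts all 3 were highest in replicate 1, at 6.00, 5.26 and 1.09.

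Junb, which forms AP-1 dimers that can oppose those of JUN, also did not separate the genotypes. Its lowest, median and highest signals were 0.708, 0.757 and 1.11 in ABCC2-/- grafts and 0.701, 0.831 and 0.965 in wild-type grafts. The ABCC2-/- values were close together apart from replicate 9, which at 1.11 stood above all other arrays. The log2 difference was -0.04 (SE 0.13, adjusted p = 0.913).

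Jund, the JUN family member that is often expressed without a stimulus, had wild-type arrays at separate levels. Its tested probe set had signals of 12.8, 12.1, 9.12, 11.2, 10.1 and 10.1 in ABCC2-/- replicates 5, 9, 11, 3, 10 and 14. In wild-type replicates 1, 6 and 9 the signals were 23.4, 22.9 and 21.0, and in wild-type replicates 4, 7 and 8 they were 13.5, 10.4 and 9.27. The first 3 wild-type arrays were thus above all 9 others, and the remaining 3 lay in and just above the ABCC2-/- range. Over all arrays the mean was 10.9 ± 1.38 in ABCC2-/- grafts and 16.7 ± 6.41 in wild-type grafts (SD, n = 6 each), and the log2 difference of -0.53 (SE 0.21) did not pass (adjusted p = 0.606). The 924 assignments of the arrays to the genotypes gave a two-sided exact permutation p of 0.0823.

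**Figure D2:**
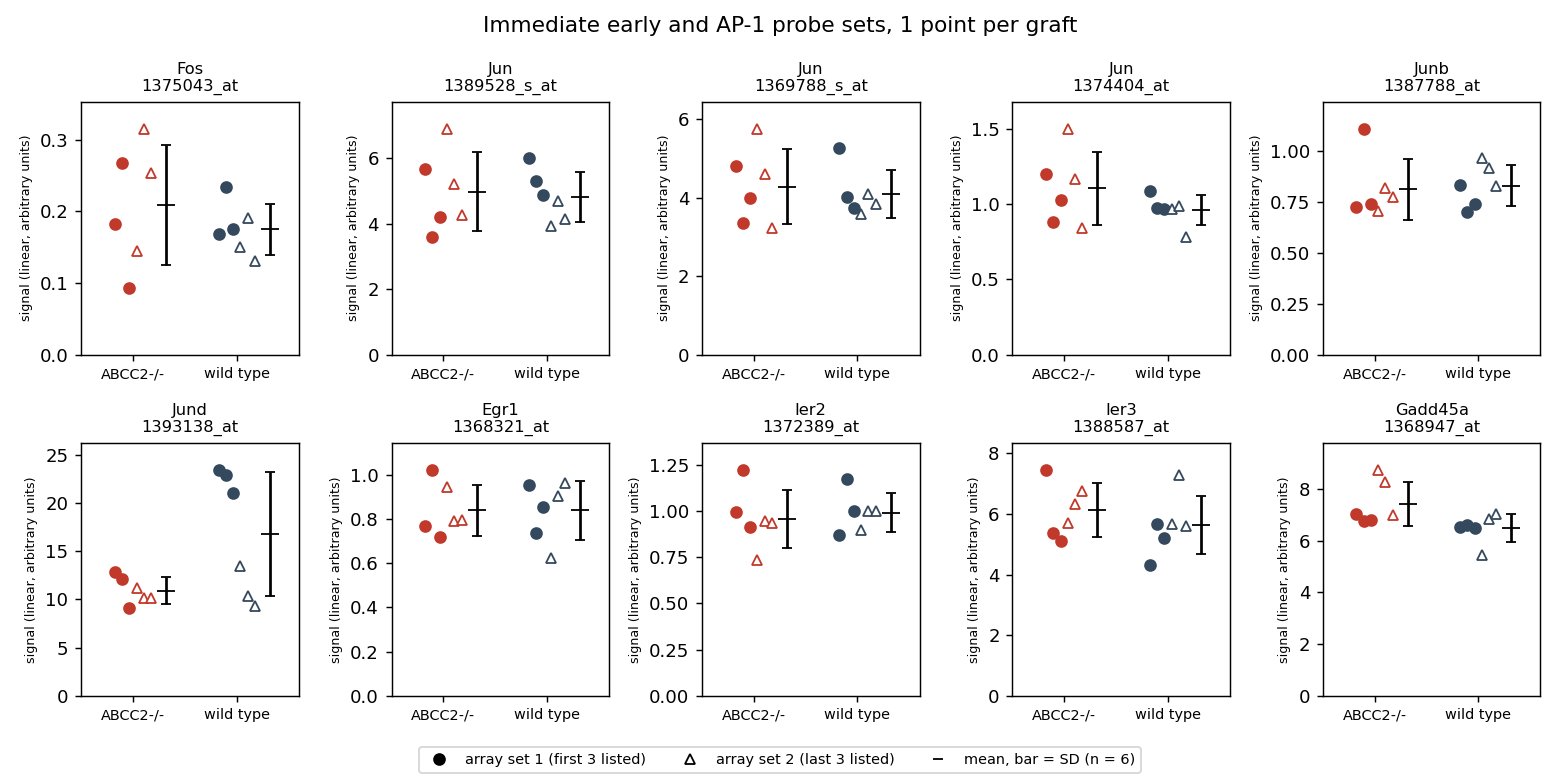
Signal of each tested probe set in every graft, on linear axes from 0, with ABCC2-/- grafts left and wild-type grafts right, filled circles for array set 1 and open triangles for array set 2, and bars for the mean and SD of 6 arrays. Jund is the panel in which the 3 wild-type circles (21.0 to 23.4) stand above the other 9 points (9.12 to 13.5).

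Within the array sets the Jund comparison gave different answers. The set fits, the interaction and the block all treat a set as matched across the genotypes, which the sources do not establish. In array set 1 the mean was 11.3 ± 1.95 in ABCC2-/- and 22.4 ± 1.22 in wild-type grafts (SD, n = 3 each), a log2 difference of -0.998 (SE 0.11) that passed in a limma fit of these 6 arrays alone (adjusted p = 0.0263). In that fit 4 of 18625 probe sets passed (0.0215%). In array set 2 the mean was 10.5 ± 0.649 in ABCC2-/- and 11.1 ± 2.21 in wild-type grafts (SD, n = 3 each), a log2 difference of -0.07 (SE 0.12, adjusted p = 0.784), in a fit that called 6.39% of all probe sets. The difference between the sets was tested as an interaction, added after the values were seen, and was 0.93 on the log2 scale (SE 0.18, limma adjusted p = 0.0138). Of all tested probe sets 2.54% passed that interaction test, and 1342 (7.21%) had the 3 wild-type arrays of set 1 above the other 9 arrays as Jund did. With the array set as a block over all 12 arrays the Jund difference was -0.53 (SE 0.15, limma adjusted p = 0.0884). Each genotype has 3 arrays in each set, so the block cannot change a difference, only its SE and p-value. Without wild-type replicate 1, 6 or 9 the difference over all arrays was -0.42, -0.42 or -0.45, and its unadjusted p was no longer under 0.05. Nothing in the sources records what distinguishes the sets, and what part that has in the Jund difference was not tested.

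The other members gave no interaction that passed. At an unadjusted p under 0.05 it took in 2 of the 10, Jund and the brightest Jun probe set, where 18.2% of all tested probe sets stood past that level. This Jun probe set had a log2 difference of -0.29 (SE 0.15) in set 1 and 0.34 (SE 0.15) in set 2, and an interaction of 0.62 (SE 0.24, limma adjusted p = 0.175). For the remaining 8 probe sets the adjusted p of the interaction lay between 0.360 and 0.918. Set 1 alone gave 1 of the 10 at an unadjusted p under 0.05 (Jund), against 11.5% of all, and set 2 alone gave 2 of the 10 (Gadd45a and the brightest Jun probe set), against 24.6% of all.

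**Figure D3:**
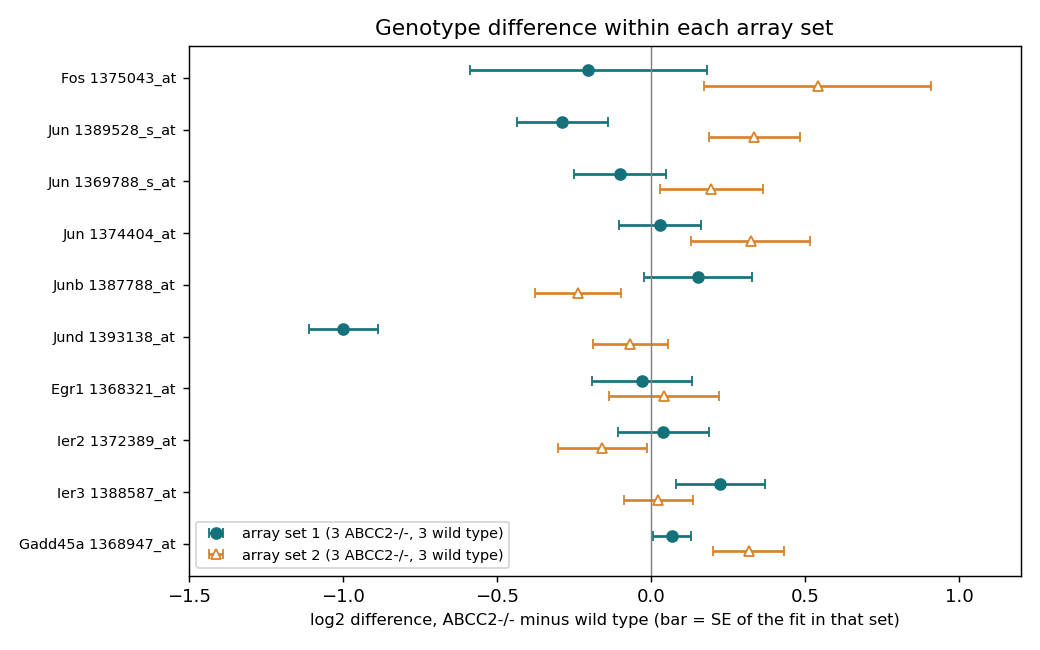
Log2 difference, ABCC2-/- minus wild type, of the 10 tested probe sets within array set 1 (filled circles) and array set 2 (open triangles), each from 3 and 3 arrays, with bars for the SE of the fit in that set. Jund is at -0.998 in set 1 and -0.07 in set 2, and in the other 9 probe sets both points lie between -0.29 and 0.54.

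Only 1 of the 3 Jund probe sets carries this result. The other 2 were below the floor in 9 of the 12 arrays or more. One had signals of at most 0.160 in ABCC2-/- and 0.129 in wild-type grafts, and the other of at most 0.131 in ABCC2-/- and 0.0903 in wild-type grafts, so neither repeats nor contradicts the first. The tested genes whose log2 signal ran most closely with Jund over the 12 arrays, looked up after its values were seen, were Ube2g1 (r = 0.95), Skic3 (0.94), Kdm2a, Mtfr1 and Ubac1 (0.93 each). The r values are the highest among all tested genes and carry no test.

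Promoter sequences were available from RefSeq (GRCr8) for 6 of the 10 genes, namely Fosb, Junb, Jund, Egr1, Ier2 and Gadd45a. The 250 bases before the annotated start are printed for Jund, Ier2 and Junb. The Jund signal split the arrays, and Junb is the Jund relative whose groups overlapped throughout. Ier2 was the only other of these 6 genes with a cyclic AMP response element in the window searched. The windows lie at chr16:18769772-18770021 (minus strand) for Jund, chr19:40399123-40399372 (plus strand) for Ier2 and chr19:40080876-40081125 (plus strand) for Junb. Each runs 5′ to 3′ on the gene's strand, and capitals mark the cyclic AMP response element TGACGTCA, CCAAT and TATAA on either strand.
Jund: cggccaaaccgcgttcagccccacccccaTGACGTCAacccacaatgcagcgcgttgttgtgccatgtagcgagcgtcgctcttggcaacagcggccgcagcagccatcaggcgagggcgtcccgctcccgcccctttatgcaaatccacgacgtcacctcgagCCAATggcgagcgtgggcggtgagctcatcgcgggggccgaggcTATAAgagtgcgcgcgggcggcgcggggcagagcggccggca
Ier2: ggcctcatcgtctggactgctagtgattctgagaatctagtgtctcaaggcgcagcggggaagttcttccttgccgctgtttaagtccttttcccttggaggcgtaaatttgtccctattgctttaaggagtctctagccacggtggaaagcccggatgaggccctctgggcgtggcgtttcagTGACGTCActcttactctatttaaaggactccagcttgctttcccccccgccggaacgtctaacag
Junb: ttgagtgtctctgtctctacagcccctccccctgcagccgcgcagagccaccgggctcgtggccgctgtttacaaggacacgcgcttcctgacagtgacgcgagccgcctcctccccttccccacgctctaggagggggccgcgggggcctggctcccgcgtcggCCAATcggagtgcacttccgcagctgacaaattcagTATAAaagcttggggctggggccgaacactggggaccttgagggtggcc

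The cyclic AMP response element, the site of CREB and of several AP-1 dimers, was found in 2 of the 6 promoters and in 531 of the 33469 promoters of the table (1.59%). In Jund it began 221 bases before the start and in Ier2 66 bases before it. The CArG box, the site of the serum response factor, was found in 1 of the 6, in Egr1 at 105 and again at 83 bases before the start, and in 1.497% of all promoters. The AP-1 site TGACTCA was in 0 of the 6 and in 4.05% of all promoters. CCAAT was in 4 of the 6 (34.0% of all) and TATAA in 3 of the 6 (24.0% of all). No 2 of these motifs overlap in the printed sequences. A match describes the letters of this window alone.

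Egr1, a zinc finger factor induced by the same signals as Fos, did not separate the genotypes. Its lowest, median and highest signals were 0.718, 0.792 and 1.02 in ABCC2-/- grafts, against 0.621, 0.879 and 0.960 in wild-type grafts. The log2 difference was 0.0080 (SE 0.13, adjusted p = 0.988), with a 95% interval of -0.27 to 0.28, so a difference of that size in either direction lies within the error. Ier2, a nuclear protein of the immediate early response, had 0.737, 0.938 and 1.22 in ABCC2-/- grafts and 0.869, 1.00 and 1.17 in wild-type grafts. Its log2 difference was -0.06 (SE 0.12, adjusted p = 0.863), and the wild-type range lay inside the ABCC2-/- range. Ier3, a stress-inducible regulator of cell survival, had 5.09, 6.02 and 7.44 in ABCC2-/- grafts and 4.32, 5.64 and 7.28 in wild-type grafts, a log2 difference of 0.13 (SE 0.12, adjusted p = 0.719) with wide overlap.

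Atf3, a stress-induced repressor of the same leucine zipper class that can pair with JUN proteins, was too dim for the test across probe sets. Its lowest, median and highest signals were 0.0184, 0.0842 and 0.184 in ABCC2-/- grafts and 0.104, 0.155 and 0.197 in wild-type grafts. Of the ABCC2-/- arrays 3 were below the floor and of the wild-type arrays none, which leaves the ABCC2-/- level partly unmeasured. By array set, the wild-type signals were 0.197, 0.165 and 0.177 in set 1 and 0.112, 0.144 and 0.104 in set 2. The ABCC2-/- signals were 0.184, 0.114 and 0.0636 in set 1 and 0.0994, 0.0691 and 0.0184 in set 2. With no level filter the log2 difference over all arrays was -0.63 (limma unadjusted p = 0.0357, adjusted p = 0.665), with a two-sided exact permutation p of 0.0563. In that fit of all probe sets Atf3 and Gadd45a were the 2 of 15 member probe sets at an unadjusted p under 0.05, against 7.30% of all, and Jund had an unadjusted p of 0.051.

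Gadd45a, a growth arrest and DNA damage gene that responds to p53 and to stress kinases, had the smallest SE of the 10. Its lowest, median and highest signals were 6.75, 7.01 and 8.72 in ABCC2-/- grafts, against 5.45, 6.58 and 7.01 in wild-type grafts. The ABCC2-/- grafts were higher as a group, with overlap between 6.75 and 7.01. The log2 difference was 0.19 (SE 0.09, adjusted p = 0.616) with a two-sided exact permutation p of 0.0238. The 2 highest values, 8.72 and 8.28, were those of ABCC2-/- replicates 3 and 10, the arrays with the smallest Gapdh ratios of all 12 (0.379 and 0.359). With that ratio as a covariate the difference was 0.09 (SE 0.08). Without the 3 arrays of lowest ratio, all ABCC2-/- of set 2, it was 0.09 (SE 0.09). Neither passed the adjusted threshold, nor did any other member in these fits. Such low ratios occurred in no other arrays, so the ratio, the genotype and the array set cannot be told apart here. Across the 12 arrays, with the genotype means removed, Gadd45a was lower where the ratio was higher (Pearson r = -0.70, permutation p = 0.0111, adjusted p = 0.210 over 19 relations, and Spearman rho = -0.76, permutation p = 0.00534, adjusted p = 0.101). Without the 2 arrays farthest from the median ratio r was -0.63, and it was 0.24 within set 1 and -0.88 within set 2. The relation thus did not pass the adjustment and had this direction in 1 of the 2 sets. The unadjusted call of Gadd45a was lost both with the covariate and without the 3 arrays of lowest ratio. In the same fits Jund also lost its unadjusted call (-0.46, SE 0.23 and -0.48, SE 0.275). Gadd45a lost its call in other alternatives too. Among these were median centring (0.14, SE 0.08), no variance trend (0.19, SE 0.10) and leaving out ABCC2-/- replicate 3 (0.15, SE 0.09).

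The spread between grafts of one genotype differed widely among these genes. Fos and Jund had residual SDs of 0.51 and 0.44 on the log2 scale, at percentiles 92.9 and 88.7 of all tested probe sets. Gadd45a had the lowest, 0.14, at percentile 13.2. The other 7 probe sets lay between percentiles 31.7 and 64.5, so that as many members were above the middle of all probe sets (5) as below it (5). Fos had its signals near the floor, and Jund had wild-type arrays at separate levels.

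Whether the members moved together from graft to graft was examined with the genotype means removed. None of the 9 relations of a member with Fos passed adjustment over the 19 relations computed, 10 of which were with the Gapdh ratio. The strongest with Fos was Ier2 (Pearson r = 0.50, permutation p = 0.0990, adjusted p = 0.656, and Spearman rho = 0.56, permutation p = 0.0633, adjusted p = 0.601). It was 0.73 without the 2 arrays farthest from the median of Fos, 0.33 without the 2 farthest from the median of Ier2 (ABCC2-/- replicates 3 and 9), 0.83 within set 1 and 0.82 within set 2. Ier2 was picked as the strongest of the 9 in these same arrays, so the values within the sets are no separate evidence. Among all 28 pairs of the 8 tested genes, a family added after the values were seen, the strongest were Jun with Gadd45a and Jun with Junb, and neither passed. For Jun with Gadd45a r was 0.65 (permutation p = 0.0218, adjusted p = 0.341) and rho 0.65 (permutation p = 0.0254, adjusted p = 0.445). For Jun with Junb r was -0.64 (permutation p = 0.0243, adjusted p = 0.341) and rho -0.60 (permutation p = 0.0430, adjusted p = 0.445). For Jun with Gadd45a r was 0.87 within set 1 and 0.73 within set 2, and for Jun with Junb it was -0.56 and -0.45. Leaving out ABCC2-/- replicates 3 and 9, the arrays farthest from the median of Jun, gave r of 0.41 with Gadd45a and -0.36 with Junb. Leaving out the 2 arrays farthest in the other gene gave 0.39 for Gadd45a (ABCC2-/- replicate 3 and wild-type replicate 4) and -0.29 for Junb (ABCC2-/- replicate 9 and wild-type replicate 4). Both relations were thus smaller over 10 arrays, with the same direction there and in each set. These are parts of the 12 arrays in which the pairs were picked as the strongest of 28, so the shared direction is no separate evidence. By signal, ABCC2-/- replicate 3 had the highest Jun (6.89) and Gadd45a (8.72) and the lowest Ier2 (0.737) of all 12 arrays. ABCC2-/- replicate 9 had the highest Junb (1.11), Egr1 (1.02) and Ier2 (1.22) and the lowest value of the brightest Jun probe set (3.58).

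**Figure D4:**
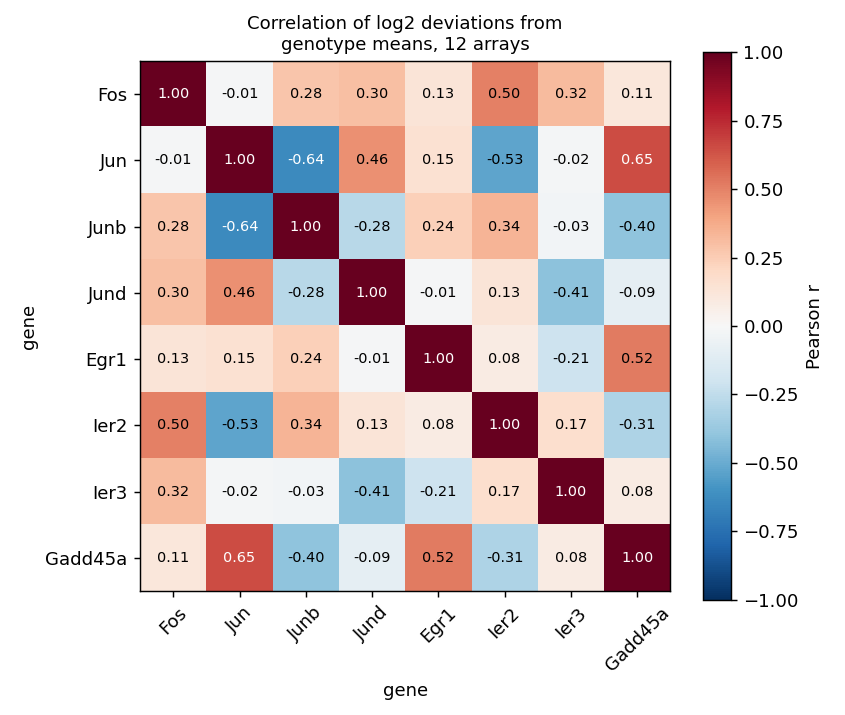
Pearson r between the log2 deviations from the genotype means of the 8 tested genes over 12 arrays, each gene by its brightest probe set, on a scale from -1 to 1. The strongest cells off the diagonal are Jun with Gadd45a (0.65) and Jun with Junb (-0.64), and none of the 28 pairs passed adjustment.

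The genes most like Fos by the rule used here, the 5 with the highest r of deviations over the 12 arrays, were Polr3e (0.87), Timm8a2 (0.83), Dctn4 (0.83), Kiz (0.79) and Pmm1 (0.78). The values are the highest among 10639 tested genes and carry no test.

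Other genes of the pathway were counted in 5 lists, with the brightest tested probe set of each gene. Of 109 listed genes 79 were tested, none passed the adjusted threshold, 37 differences were positive and 42 negative, and the median was -0.0080 against -0.041 over all tested genes. At an unadjusted p under 0.05 there were 6 of the 79 (7.59%), against 7.64% of all tested genes.

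Further AP-1 and leucine zipper genes gave 5 positive and 4 negative differences among 9 tested (median 0.066). Creb5, a CREB family factor that can bind with JUN, had the lowest p, with 0.457 ± 0.114 in ABCC2-/- and 0.291 ± 0.0463 in wild-type grafts (SD, n = 6 each). Its log2 difference was 0.63 (SE 0.18, adjusted p = 0.606). Its ABCC2-/- values of 0.313 to 0.616 and wild-type values of 0.223 to 0.357 overlapped. The small MAF protein gene Mafg had -0.14 (SE 0.10).

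Other immediate early transcription factors gave 7 positive and 8 negative differences among 15 tested (median -0.011). Egr3, a relative of Egr1, had 0.172 to 0.311 in ABCC2-/- and 0.108 to 0.223 in wild-type grafts and a log2 difference of 0.49 (SE 0.23, adjusted p = 0.625), and Klf10, a TGF-beta-induced factor, had -0.19 (SE 0.15). Other immediate early genes and feedback inhibitors gave 12 positive and 16 negative differences among 28 tested (median -0.0080). Plk3, a polo-like kinase of the stress response, had 0.68 (SE 0.31, adjusted p = 0.614) at signals of 0.226 to 0.428 in ABCC2-/- and 0.0643 to 0.277 in wild-type grafts. The lowest wild-type Plk3 signal was under the floor and was raised to it. Gadd45b, a relative of Gadd45a, had 0.41 (SE 0.24).

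The upstream kinases and factors gave 5 positive and 7 negative differences among 12 tested (median -0.052). Elk1, the partner of the serum response factor that ERK phosphorylates, had 0.498 to 0.907 in ABCC2-/- and 0.704 to 0.964 in wild-type grafts and a log2 difference of -0.38 (SE 0.15, adjusted p = 0.612). Map2k2, the kinase MEK2, had -0.19 (SE 0.11). Target genes of AP-1 and stress signalling gave 8 positive and 7 negative differences among 15 tested (median 0.016). Hmox1, the inducible heme oxygenase and also a target of NRF2, had 0.430 to 0.961 in ABCC2-/- and 0.286 to 0.592 in wild-type grafts and a log2 difference of 0.97 (SE 0.21, adjusted p = 0.465), and the survival gene Bcl2l1 had -0.39 (SE 0.14, adjusted p = 0.606). With the array set as a block, which cannot change the difference, Hmox1 passed (limma adjusted p = 0.0462) in a fit that called 0.601% of all probe sets. In set 2 the ABCC2-/- arrays had Gapdh ratios of 0.359 to 0.449, against 0.71 to 0.913 in the wild-type arrays. These ABCC2-/- arrays stood above all 9 others in 9.0% of tested probe sets and below them in 9.4%. In a fit of set 2 alone the genotype and that ratio therefore cannot be told apart. In set 2 alone 6 pathway genes passed, in a limma fit that called 6.39% of all probe sets. Lower in ABCC2-/- grafts were Bcl2l1 (-0.64, adjusted p = 0.0153) and Elk1 (-0.80, adjusted p = 0.0102). Higher were Ccnd1 (0.97, adjusted p = 0.000184), Gdf15 (0.69, adjusted p = 0.0453), Dusp6 (0.56, adjusted p = 0.0146) and Spp1 (0.52, adjusted p = 0.028).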

How the data were processed

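Total RNA of renal cortex from 12 grafts was measured on Affymetrix 3′ arrays, per the labels' protocols. The deposited intensity values are probe set signals on a linear scale. MAS5 and GCOS made them, per the submitters' processing notes, and versions are not given in the sources used here. On each array the low values lay, within 0.05 of a step, on a grid of equal steps whose size gives the array's dividing constant, and 3.56% of all values were 0.01. Groups and replicate numbers came from the sample titles. Control probe sets (57) were left out, values under 0.0694 were raised to it, log2 was taken, and 18625 probe sets were fitted with limma 3.58.1 in R 4.3.3 (trend, genotype as the factor, Benjamini-Hochberg). The fit was tested on simulated data. Single values were compared by exact permutation tests and correlations by 100000 permutations in numpy 2.4.6. The number of arrays limits the precision.

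Symbols came from the platform annotation, updated by Entrez number to the GRCr8 gene table, and a gene in a list was represented by its brightest tested probe set. Named genes were all 10 members, Abcc2, the 2 genes of lowest p in each pathway list where none passed, and the 5 genes most like Fos. Those most like Jund were named after its values were seen. The members and the lists were chosen with earlier results of these data known, and the array sets were defined from the listing order. Alternatives changed the floor, filter, normalization, variance model, array weights, array set, RNA quality covariate and the arrays included.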

Additional observations from a re-analysis of the deposited data

Results flagged for a closer look

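For the tested Jund probe set the genotype difference in array set 2 minus that in array set 1 was 0.932 on the log2 scale, which passed the test of the difference itself over all probe sets (limma, adjusted p = 0.0138). Array signals far from the others of their genotype, by Dixon's ratio at the 95% level, were the Junb signal of 1.11 in ABCC2-/- replicate 9 (highest), the signal of 5.26 of the second brightest Jun probe set in wild-type replicate 1 (highest) and the Gadd45a signal of 5.45 in wild-type replicate 4 (lowest). Chance alone gives about 1 such array in 20 groups, and 20 groups of members were examined.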

How the results depend on the processing

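Over all arrays, 4 probe sets were called, 0 of them higher in ABCC2-/- grafts. The count of calls was 2 with values under 1 set to 1, 2 with the filter at the 60th percentile, 112 with the array set as a block (38 higher) and 1190 in set 2 alone (686 higher). With no filter 2 were higher and with array weights 1. Leaving out 1 array gave 3 to 5 calls, 0 to 1 of them higher. No member was called in any alternative except Jund in set 1 alone (1 member, -0.998), and leaving out 1 array gave 0 members called. Of the 10 member probe sets, the 2 at an unadjusted p under 0.05 became 1 with values under 1 set to 1, no filter (2 when all 15 are counted, through Atf3), median centring, no variance trend, array weights, set 1 alone and the Gapdh ratio with the block. They became 0 where the Gapdh ratio entered the fit without the block and also, in an alternative chosen after seeing the data, without the 3 arrays of lowest ratio. They were 0 to 2 with 1 array left out, and 0 without wild-type replicate 1, 6 or 9. Of the 79 tested pathway genes, 0 were called over all arrays and 0 with any 1 array left out. Under the block 1 was called (Hmox1, 0.97), where 0.601% of all probe sets were called. In set 2 alone, where genotype and Gapdh ratio cannot be told apart, 6 were called, against 6.39% of all probe sets. They were Ccnd1 (0.97), Gdf15 (0.69), Dusp6 (0.56), Spp1 (0.52), Bcl2l1 (-0.64) and Elk1 (-0.80).

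Jund, Ier3, Gadd45a and the dimmest Jun probe set kept their direction in all alternatives, with 1-array-out ranges of -0.683 to -0.416, 0.053 to 0.203, 0.144 to 0.22 and 0.083 to 0.249. The other tested member probe sets changed sign in some alternatives. The log2 differences of Fos, the brightest Jun, the second Jun probe set and Egr1 were -0.203, -0.287, -0.1 and -0.028 in set 1 alone, -0.082, -0.07, -0.0038 and -0.062 with the Gapdh ratio, -0.278, -0.188, -0.065 and -0.143 with the ratio and the block, and -0.055, -0.118, -0.021 and -0.0036 without the 3 arrays of lowest ratio. Median centring gave -0.032 and -0.0085 for these Jun probe sets and -0.049 for Egr1, and array weights gave -0.037 for the brightest Jun and -0.033 for Egr1. Junb was 0.025 with values under 1 set to 1, 0.153 in set 1, 0.023 with the ratio and the block and 0.026 without the 3 arrays. Ier2 was 0.0091 with values under 1 set to 1, 0.041 in set 1, 2e-05 with the ratio and 0.07 without the 3 arrays. With 1 array left out, Fos ranged from 0.029 to 0.38, the Jun probe sets from -0.077 to 0.112 and -0.043 to 0.124, Junb from -0.135 to 0.0033, Egr1 from -0.075 to 0.051, Ier2 from -0.131 to 0.014 and Abcc2 from -2.819 to -2.495. The cause was not tested. With values under 1 set to 1, Fos and Abcc2 had no value left. No paired analysis was possible because the genotypes share 1 replicate number. Signals near the floor limit Fos, Fosb, Atf3 and 2 of the 3 Jund probe sets, and also the pathway gene Plk3.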
